A study of Mus musculus with 8 samples.

Results

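The collagen chains were the protein-coding genes of the deposited gene count table whose symbols had the form Col, a type number, the letter a and a chain number, which gave 44 genes of the 43346 listed. The table came from mRNA sequencing of cardiac ventricular tissue of 8 male C57BL/6 mice, 4 with tumors and 4 controls. LLC1 mice received 1000000 Lewis lung carcinoma cells of the LLC1 line, suspended in PBS, under the skin of the left flank at 7 weeks of age, and PBS mice received PBS alone. Ventricles were taken at day 14, and each mouse gave 1 library, named here by its group and the code on its label. All mice shared the same strain, sex and age, and the tumor was made from 1 transplanted cell line, so the comparison describes the heart at 1 time after the injection of 1 tumor line.

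Collagens are triple helices of 3 polypeptide chains, which may be copies of the product of 1 gene or come from several genes, and a chain is useful to the cell only in the combinations that its type allows. Fibrillar collagens build the tensile fibers between muscle cells, network-forming type IV collagen builds the basement membrane around cardiomyocytes and capillaries, and type VI collagen forms beaded microfilaments between both. FACIT collagens (fibril-associated collagens with interrupted triple helices) sit on the surface of fibrils, and multiplexins, which carry long sugar chains, link basement membranes to the surrounding matrix. In the heart, fibroblasts are the main source of fibrillar collagen, while endothelial cells, pericytes and muscle cells also make basement membrane collagen.

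Libraries held 12480706 to 16192158 counts in the PBS mice and 15342214 to 19747596 counts in the LLC1 mice. Collagen genes took 0.229 to 0.399% of all counts in the PBS mice and 0.170 to 0.236% in the LLC1 mice, so that the ranges met only at the PBS 1-1 mouse. This library had the fewest counts and stood apart from the other PBS mice in its collagen: 16 of the 17 members that differed between the groups were lowest among the PBS mice in PBS 1-1, against 35.1% of all tested genes and 42.1% of all genes called lower. For those 17 members its level lay at a median of −0.48 on the log2 scale from the mean of the other PBS mice, with a range from −0.95 to 0.23. The part that its depth has in this was not tested. Counts of calls without it are given below for the members, the classes and the lists. No pair of libraries within a group was identical.

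Levels are given as CPM, the count divided by the library total and put on a common scale of 1000000 counts, with totals scaled between libraries by the trimmed mean of M-values, and comparisons between genes use RPKM, the CPM divided by the gene length in kilobases, on the same scale. Col4a1 and Col4a2, the chains of the common basement membrane network, were the collagen mRNAs with the highest level per length and together made up 44.4 to 46.3% of summed collagen RPKM in the PBS mice and 46.5 to 47.7% in the LLC1 mice. Of the 44 genes, 31 had enough counts to be tested and 13 did not. In all, 19 members were above 1 RPKM in the PBS mice, 12 further tested members were at or below it, and the 13 untested members had at most 16 counts in any mouse. The plot of levels by mouse shows all tested members.

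**Figure D1:**
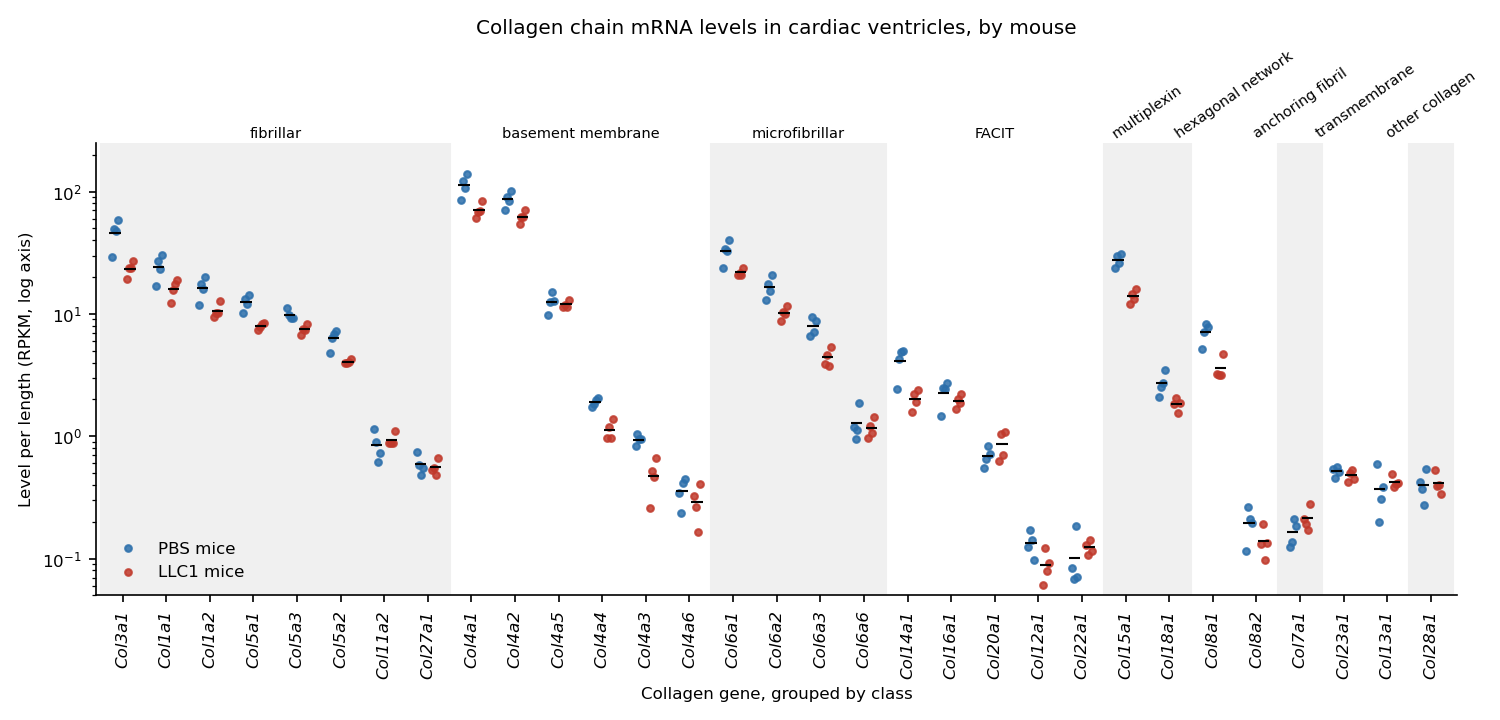
Level per length of the 31 tested collagen genes in each mouse (RPKM, log axis), grouped by class, with PBS mice in blue, LLC1 mice in red and the mean of 4 mice as a black bar. Red points lie below blue points for most abundant members, while members under 1 RPKM mostly overlap.

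Of the 31 tested collagen genes, 17 were lower in the LLC1 mice at a false discovery rate (FDR) under 0.05 and 0 were higher. Over all 16111 genes tested, 4.61% were called lower and 4.12% higher by the same edgeR quasi-likelihood test. The median log2 fold change of the 31 members was −0.57, against −0.01 over all tested genes, and 25 of the 31 had a negative value. At an unadjusted p under 0.05, 18 members were lower and 0 were higher, and DESeq2 and limma-voom also called 0 higher. Of the 19 members above 1 RPKM in the PBS mice 16 were called, and of the 12 tested members at or below it 1 was called (Col4a3). Among the 17 called members, fold values ran from 0.484 for Col14a1 to 0.760 for Col5a3. In bulk tissue, fewer cells of a type and less RNA per cell cannot be told apart.

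**Figure D2:**
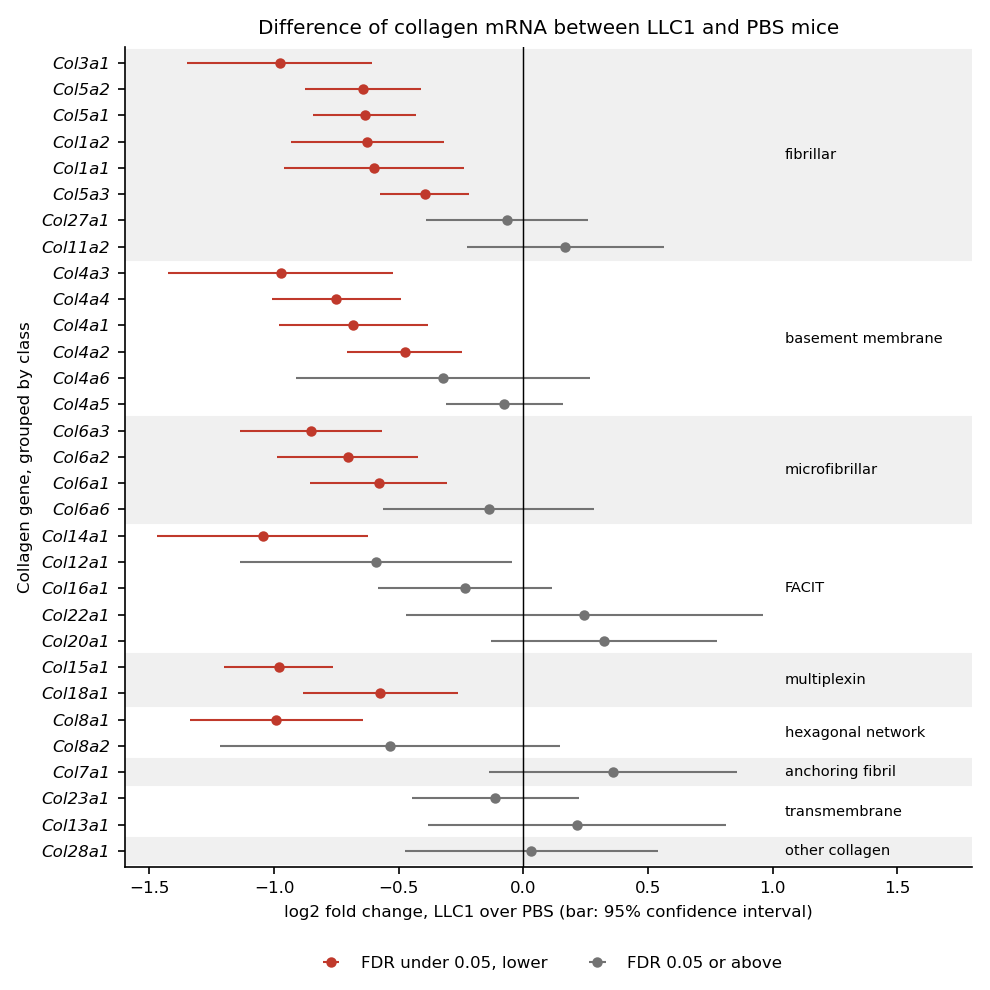
Log2 fold change of each tested collagen gene, LLC1 over PBS, with its 95% confidence interval from the fit over all genes, grouped by class; red marks an FDR under 0.05. All 17 red intervals lie to the left of 0, and grey intervals cross 0 except that of Col12a1, which ends at −0.05.

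In 14 of the 31 tested members every LLC1 mouse lay below every PBS mouse, an arrangement seen in 8.27% of all tested genes. All 14 were among the called members, which rest on the same values. The called members with overlap were Col1a1, with 2 LLC1 mice above PBS 1-1, and Col1a2 and Col6a1, with 1 LLC1 mouse above it. Without PBS 1-1, 18 members were called lower and 0 higher, against 6.38% of all 16319 genes then tested called lower, and in 19 members every LLC1 mouse lay below every remaining PBS mouse, against 12.2% of all genes. The member gained was Col16a1, a fibril-associated chain, with a log2 fold change of −0.38 and an FDR of 0.0317, against −0.23 and 0.389 with all mice. It raised the FACIT class from 1 to 2 called members, and the counts of the other classes were the same without PBS 1-1. In Col13a1 alone, every LLC1 mouse then lay above every remaining PBS mouse. Its log2 fold change was 0.49 (FDR = 0.208 with edgeR), against 0.22 with all mice. The median of the members was then −0.67.

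Sequence at the start of several of these genes shows how some chains of one trimer are encoded side by side. Col4a1 (chr8:11198423-11312826, minus strand) and Col4a2 (chr8:11312805-11449287, plus strand) lie head to head and their first exons share 22 bases. Col4a4 (chr1:82448423-82586849, minus strand) and Col4a3 (chr1:82586921-82722059, plus strand) are also head to head, with 71 bases between them that belong to neither gene. The 2 stretches are shown from RefSeq on build GRCm38.p6, plus strand, with capitals for GGGCGG on either strand, the core of the GC box bound by Sp1-type factors.
Col4a1 and Col4a2 (chr8:11312805-11312826): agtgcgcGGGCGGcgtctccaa
Col4a3 and Col4a4 (chr1:82586850-82586920): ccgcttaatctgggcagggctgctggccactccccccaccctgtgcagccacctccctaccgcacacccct
Col4a6 and Col4a5 on the X chromosome are 1 more such pair, with 1308 bases between them. Col3a1 and Col5a2 lie tail to tail on chromosome 1, 24614 bases apart, and Col6a2 and Col6a1 follow each other on chromosome 10, 85161 bases apart.

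Promoter entries were found for 13 of the 17 called members, and 6 of them had 1 entry whose 250 bases before the start held no annotated exon (Col3a1, Col5a1, Col5a3, Col6a3, Col8a1 and Col15a1). The 3 with the lowest fold change are printed, and they belong to different classes. Both strands were searched for the TATA box core TATAAA, for the box named after its letters CCAAT, for the GC box core GGGCGG and for the site of AP-1 factors, TGANTCA. Matches on either strand are in capitals, and a GC box on the other strand reads CCGCCC.
Col3a1 (chr1:45311288-45311537, plus strand): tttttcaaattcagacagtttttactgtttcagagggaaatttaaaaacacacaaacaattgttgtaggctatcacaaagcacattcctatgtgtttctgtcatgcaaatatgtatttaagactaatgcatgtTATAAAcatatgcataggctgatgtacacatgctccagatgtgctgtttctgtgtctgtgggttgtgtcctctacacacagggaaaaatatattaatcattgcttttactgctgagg
Col15a1 (chr4:47207762-47208011, plus strand): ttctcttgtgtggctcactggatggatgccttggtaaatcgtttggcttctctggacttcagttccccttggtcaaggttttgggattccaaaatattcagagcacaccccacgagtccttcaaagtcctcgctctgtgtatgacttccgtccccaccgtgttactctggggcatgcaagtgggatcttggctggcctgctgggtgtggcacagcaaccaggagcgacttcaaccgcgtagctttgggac
Col8a1 (chr16:57754738-57754987, minus strand): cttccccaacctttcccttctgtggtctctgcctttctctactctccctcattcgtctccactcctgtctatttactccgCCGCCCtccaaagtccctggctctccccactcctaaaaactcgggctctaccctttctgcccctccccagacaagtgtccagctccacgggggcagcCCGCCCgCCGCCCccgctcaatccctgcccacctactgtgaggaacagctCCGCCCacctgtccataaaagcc
Col3a1 held 1 TATAAA, 117 bases before the start, Col8a1 held 4 copies of GGGCGG, and Col15a1 held none of the motifs in this window. For Col15a1 the start is that of its promoter entry, just after 47208011. The gene start in the count table lies further on, at 47208161, so the bases just before it were not searched. Of the 3 members not printed, Col5a1 held 2 copies of GGGCGG, Col5a3 held 2 copies of GGGCGG and 1 CCAAT, and Col6a3 held none. Over all 32851 promoter entries the same 250 bases held TATAAA in 12.4%, CCAAT in 33.8%, GGGCGG in 32.7% and TGANTCA in 6.75%. These are matches of letters and not sites of binding.

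Fibrillar collagens came first among the classes by number, with 8 of 11 members tested, 6 called lower and a median log2 fold change of −0.61. Beside this and the class counts that follow, 4.61% of all tested genes were called lower. In what follows, values are CPM and the mice are taken in the order LLC1 1-2, 1-3, 1-5 and 2-2, then PBS 1-1, 1-3, 2-1 and 2-5. Col3a1, the single chain of type III collagen, which forms thin distensible fibers, measured 190, 231, 231 and 264 in the LLC1 mice and 286, 482, 467 and 570 in the PBS mice. Every LLC1 mouse lay below every PBS mouse, although PBS 1-1 was closer to the tumor-bearing mice than to the other controls. Its log2 fold change was −0.98 ± 0.17 (SE, n = 4 and 4; FDR = 0.00683 with edgeR), and −1.14 without PBS 1-1 (FDR = 6.58e-05).

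Type I collagen, the stiff main fiber of the ventricle, is assembled from the Col1a1 and Col1a2 chains. Col1a1 (chromosome 11) measured 80.2, 102, 115 and 124 in the LLC1 mice and 110, 176, 152 and 198 in the PBS mice. Col1a2 (chromosome 6) measured 115, 124, 122 and 155, then 143, 213, 196 and 243. Both overlapped at PBS 1-1 and were lower than the other 3 PBS mice in every LLC1 mouse. The log2 fold change was −0.60 ± 0.17 for Col1a1 (FDR = 0.0456 with edgeR, exact permutation p = 0.0857, two-sided) and −0.63 ± 0.14 for Col1a2 (FDR = 0.0198, exact permutation p = 0.0571). Without PBS 1-1 they were −0.74 (FDR = 0.00311) and −0.75 (FDR = 0.000774). Col1a1 passed the threshold with all mice by a narrow margin and lost it in 7 of 8 fits that left out 1 mouse, at FDR values from 0.0522 to 0.125.

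Type V collagen starts and limits the width of type I fibrils, and all of its 3 chains were lower. Col5a1 measured 62.6, 65.9, 70.8 and 72.1 against 86.8, 111, 102 and 121, a log2 fold change of −0.64 ± 0.10 (FDR = 0.00317 with edgeR). Col5a2 measured 37.8, 37.9, 38.7 and 40.7 against 46.1, 60.9, 65.4 and 69.5, a log2 fold change of −0.64 ± 0.11 (FDR = 0.00527). The LLC1 mice were close together in both genes and did not reach the lowest PBS mouse. Col5a3 measured 45.7, 51.6, 49.9 and 56.4 against 75.6, 67.0, 62.6 and 63.4, a log2 fold change of −0.40 ± 0.08 (FDR = 0.0141). It was the 1 called member in which PBS 1-1 was the highest and not the lowest PBS mouse.

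The other fibrillar members were at low levels and did not pass the test. Col11a2, a type XI chain, had a log2 fold change of 0.17 (95% confidence interval −0.23 to 0.56) and Col27a1 one of −0.07 (−0.39 to 0.26). Col2a1, Col11a1 and Col24a1 were not tested, with at most 4 counts in any mouse. Type II and type XI collagens are known from cartilage, and of the 4 cartilage markers examined Matn1 was at 0 in every mouse, while the summed level of the list was 1.21 to 2.63 CPM in the LLC1 mice and 1.47 to 2.60 in the PBS mice.

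Type IV collagen held the highest class sum, and 4 of its 6 members were lower. Col4a1 measured 413, 466, 471 and 572 in the LLC1 mice and 579, 828, 732 and 943 in the PBS mice. Col4a2 measured 359, 406, 407 and 468 against 469, 597, 551 and 663. The highest LLC1 mouse was just under PBS 1-1 in both genes, so the groups were separated by a small gap. The log2 fold change was −0.68 ± 0.14 for Col4a1 (FDR = 0.0123 with edgeR) and −0.48 ± 0.11 for Col4a2 (FDR = 0.0188), and without PBS 1-1 these were −0.80 (FDR = 0.000723) and −0.56 (FDR = 0.00207).

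The Col4a3, Col4a4 and Col4a5 chains form a second network, known best from the kidney, where its loss causes Alport syndrome. Col4a3 measured 2.58, 5.14, 4.60 and 6.59 in the LLC1 mice and 8.32, 10.3, 9.48 and 9.39 in the PBS mice, a log2 fold change of −0.97 ± 0.21 (FDR = 0.0157 with edgeR). Col4a4 measured 10.3, 12.6, 10.3 and 14.6 against 18.4, 19.4, 20.8 and 21.8, a log2 fold change of −0.75 ± 0.12 (FDR = 0.00439). Both were lower in every LLC1 mouse, and Col4a3 had its lowest value in LLC1 1-2. Exons of Col4a3 share 563 bases (5.65%) with C430014B12Rik on the opposite strand, and because the library kit does not mark strand, reads from these bases cannot be told apart. C430014B12Rik itself had a log2 fold change of −1.16 (FDR = 0.208).

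Col4a5, the partner of both chains, measured 76.4, 80.1, 77.2 and 87.7 in the LLC1 mice and 66.1, 84.1, 102 and 86.3 in the PBS mice. The groups overlapped, PBS 1-1 being the lowest and PBS 2-1 the highest of the 8 mice. Its log2 fold change was −0.08 with a 95% confidence interval from −0.31 to 0.16 (FDR = 0.700), an interval that leaves out the estimates for Col4a3 and Col4a4. Col4a6, which pairs with Col4a5 in smooth muscle basement membranes, measured 2.58, 2.11, 1.31 and 3.22 against 2.75, 1.89, 3.30 and 3.54, with a log2 fold change of −0.32 (−0.91 to 0.27). Thus 2 of the 3 head-to-head pairs were lower in both genes, and for the pair on the X chromosome neither gene passed the test.

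Type VI collagen is built from Col6a1, Col6a2 and 1 further chain, most often Col6a3, and 3 of the 4 tested members of this class were lower. Col6a1 measured 90.8, 94.6, 91.9 and 105 in the LLC1 mice and 104, 148, 142 and 177 in the PBS mice, a log2 fold change of −0.58 ± 0.13 (FDR = 0.0170 with edgeR, exact permutation p = 0.0571). LLC1 2-2 exceeded PBS 1-1 here by less than the spread of either group. Col6a2 measured 73.3, 86.8, 83.4 and 97.3 against 107, 145, 129 and 173, a log2 fold change of −0.70 ± 0.13 (FDR = 0.00874). Col6a3 measured 46.5, 55.6, 45 and 63.9 against 78.9, 112, 84.9 and 105, a log2 fold change of −0.85 ± 0.13 (FDR = 0.00376). The groups did not overlap in the latter 2 genes. Col6a6, an alternative to Col6a3, had a log2 fold change of −0.14 (−0.56 to 0.28), and Col6a4 and Col6a5 had too few counts to test.

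FACIT collagens were 9 members, of which 5 were tested and 1 was lower, against 4.61% of all tested genes. Col14a1, found on the surface of type I fibrils, measured 11.1, 15.4, 13.3 and 16.7 in the LLC1 mice and 17.2, 30.0, 34.1 and 35.1 in the PBS mice. Its log2 fold change of −1.05 ± 0.20 (FDR = 0.00915 with edgeR) was the lowest of all members, and without PBS 1-1 it was −1.22 (FDR = 0.000107). PBS 1-1 was just above the highest LLC1 mouse. Col14a1 is also among the genes that the study listed from these samples, so its value is not independent evidence of a direction. Col12a1, the member next outside the threshold, had a log2 fold change of −0.59 (−1.14 to −0.05; FDR = 0.163). Col16a1 had −0.23, Col22a1 0.25 and Col20a1 0.32, each with an interval that crossed 0, and Col9a1, Col9a2, Col9a3 and Col19a1 had too few counts.

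Both multiplexins were lower, and Col15a1 had the smallest FDR of all collagens. Col15a1, found at the outer face of basement membranes in muscle and small vessels, measured 76.9, 92.8, 84.1 and 101 in the LLC1 mice and 151, 188, 167 and 196 in the PBS mice. The gap between the groups was wider than the range within either of them. Its log2 fold change was −0.98 ± 0.10 (FDR = 0.000489 with edgeR), and −1.04 without PBS 1-1. Col18a1, the precursor of endostatin, measured 13, 14.3, 10.9 and 13.2 against 14.7, 17.7, 19.1 and 24.4, a log2 fold change of −0.57 ± 0.14 (FDR = 0.0291). Its call was lost without LLC1 1-2, 1-3, 1-5 or 2-2, and without PBS 1-3 or 2-1, at FDR values from 0.0540 to 0.0873.

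Type VIII collagen forms hexagonal lattices below endothelium. Col8a1 measured 16.6, 16.2, 16.2 and 24.1 in the LLC1 mice and 26.5, 36.2, 42.4 and 40.2 in the PBS mice, a log2 fold change of −0.99 ± 0.16 (FDR = 0.00440 with edgeR). Only LLC1 2-2 came near PBS 1-1, and the other 3 LLC1 mice were almost the same. Col8a2, its partner chain at a far lower level, measured 0.595, 0.856, 0.438 and 0.604 against 0.515, 1.19, 0.942 and 0.885, a log2 fold change of −0.54 (−1.22 to 0.15; FDR = 0.309). The remaining tested members were Col7a1 of anchoring fibrils, with a log2 fold change of 0.36 (−0.14 to 0.86), the transmembrane collagens Col13a1 (0.22) and Col23a1 (−0.11), and Col28a1 (0.03), all with intervals that crossed 0. Col10a1, Col17a1, Col25a1 and Col26a1 were not tested.

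**Figure D3:**
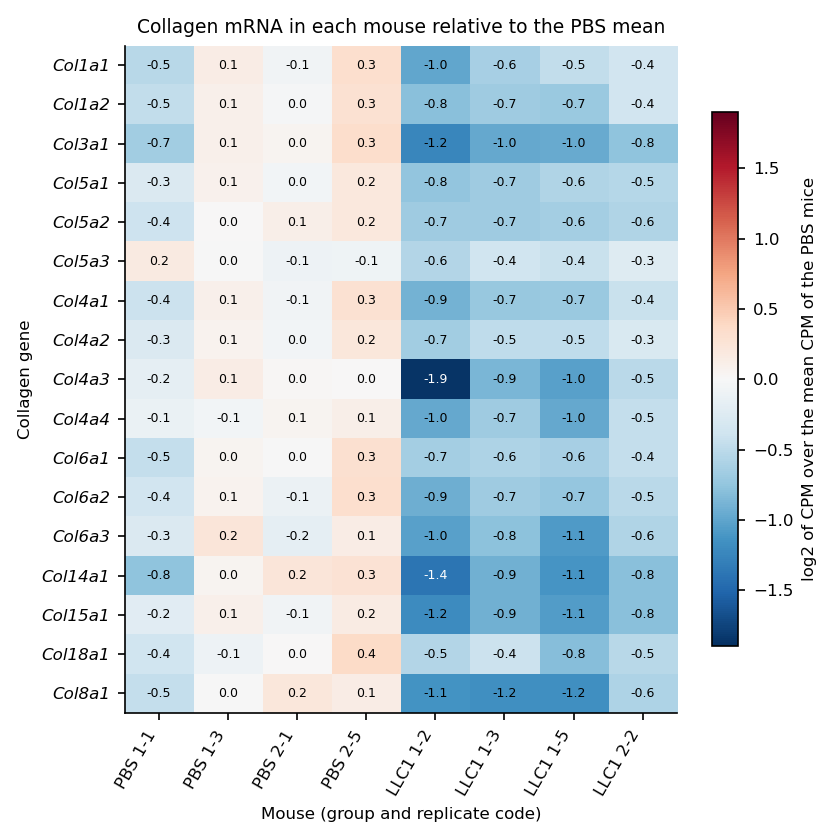
Log2 of the CPM of each of the 17 called collagen genes over the mean of the PBS mice, by mouse; blue is lower and red is higher. All 4 LLC1 columns are blue throughout, and the PBS 1-1 column is blue in every gene except Col5a3.

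The calls of 11 members held in every fit that left out 1 of the 8 mice, and those of 6 did not (Col1a1, Col1a2, Col4a2, Col4a3, Col6a1 and Col18a1). Col1a2, Col4a2 and Col6a1 each lost the call without LLC1 1-2, 1-3 or 1-5 and without PBS 1-3, at FDR values from 0.0523 to 0.0673, and Col4a3 without PBS 1-3 at 0.0552. In none of these fits did a called member change direction.

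The question whether the classes differed was described by sums per mouse. Fibrillar collagens summed to 71.0 ± 8.55 RPKM (SD, n = 4) in the LLC1 mice and 116.6 ± 23.0 in the PBS mice, a ratio of 0.609. Basement membrane collagens summed to 146.2 ± 17.6 against 215.0 ± 36.1, a ratio of 0.680, and microfibrillar collagens to 37.7 ± 3.51 against 58.5 ± 11.4, a ratio of 0.644. FACIT collagens summed to 5.24 ± 0.831 against 7.59 ± 1.81, a ratio of 0.691. These 4 ratios lay within a narrow band, while multiplexins, with 15.8 ± 1.76 against 30.3 ± 3.67, and hexagonal network collagens, with 3.77 ± 0.736 against 7.35 ± 1.43, had ratios of 0.522 and 0.513. The latter 2 sums were each mostly 1 gene in the PBS mice, Col15a1 (27.6 RPKM) and Col8a1 (7.11 RPKM). Col18a1 and Col8a2, the other tested chains of these classes, had fold values of 0.672 and 0.690, and Col8a2 was not called. Of the FACIT sum, most was Col14a1 (4.15 RPKM) and Col16a1 (2.28 RPKM). The sums overlapped between the groups for the basement membrane and FACIT classes, in both cases at PBS 1-1, and did not for the other 4. Without PBS 1-1 the sums of all 6 classes were apart, with ratios of 0.559 (fibrillar), 0.635 (basement membrane), 0.596 (microfibrillar), 0.620 (FACIT), 0.498 (multiplexin) and 0.469 (hexagonal network).

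**Figure D4:**
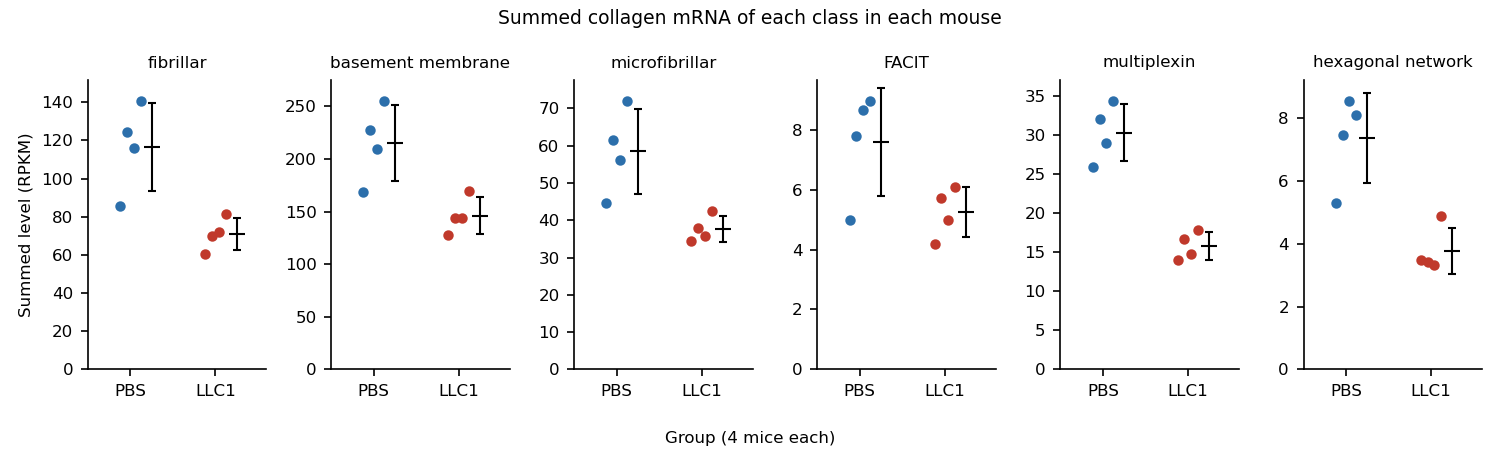
Summed RPKM of each collagen class in each mouse, with the mean and SD of 4 mice beside the points and axes that start at 0. The LLC1 mice lie below the PBS mice except for a meeting at PBS 1-1 in the basement membrane and FACIT panels.

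As a share of all collagen RPKM, basement membrane collagens made up 51.9 ± 0.403% in the LLC1 mice and 49.2 ± 0.567% in the PBS mice, and fibrillar collagens 25.2 ± 0.636% and 26.6 ± 0.774%. Microfibrillar collagens made up 13.4 ± 0.465% and 13.4 ± 0.316%. Multiplexins made up 5.63 ± 0.262% and 6.99 ± 0.484%. The sum over all collagens was 281.4 ± 32.3 RPKM in the LLC1 mice, from 245.99 to 324.3, and 437.1 ± 76.7 in the PBS mice, from 336.9 to 520.4. The highest LLC1 mouse was below the lowest PBS mouse, PBS 1-1.

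Whether chains moved by equal amounts was tested by the ratio of their counts within each mouse. The comparison of such ratios between mice depends neither on library scaling nor on gene length. The ratios of 5 of the 14 pairs were apart between LLC1 and PBS mice. By a two-sided exact permutation test each had p = 0.0286, the smallest that 70 arrangements allow, and 0.08 after adjustment over the 14 pairs. None of the pairs passed 0.05 after adjustment. Without PBS 1-1 the number of pairs apart was also 5. The ratio of Col3a1 to Col1a1 was 2.37, 2.25, 2.02 and 2.14 in the LLC1 mice and 2.60, 2.73, 3.06 and 2.88 in the PBS mice, and the log2 ratio was lower by 0.36. The ratio of Col4a1 to Col4a2, partners in 1 trimer that share a start region, was 1.15, 1.15, 1.16 and 1.22 against 1.23, 1.39, 1.33 and 1.42, a log2 difference of −0.20. In both pairs the first chain had the lower fold value in the fit over all genes, which follows from the same counts.

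Col4a5 to Col4a4 had the largest shift of the 14 pairs, with ratios of 7.43, 6.32, 7.49 and 5.98 in the LLC1 mice and 3.58, 4.34, 4.88 and 3.95 in the PBS mice, a log2 difference of 0.70. Col15a1 was lower relative to Col18a1 in every LLC1 mouse, with ratios of 5.92, 6.48, 7.71 and 7.65 against 10.3, 10.6, 8.70 and 8.0 and a log2 difference of −0.44, and relative to Col4a1, with a log2 difference of −0.31. For Col1a1 to Col1a2 the log2 difference was 0.03, with an exact permutation p of 0.743, and for Col5a1 to Col5a2 it was −0.0022 (p = 0.943). Within these partner pairs the LLC1 ratios ran from 0.700 to 0.936 and from 1.66 to 1.83, and the PBS ratios from 0.768 to 0.826 and from 1.56 to 1.88. The log2 difference was 0.13 for Col6a1 to Col6a2 (exact permutation p = 0.0857), −0.29 for Col6a3 to Col6a1 (p = 0.114), −0.29 for Col4a3 to Col4a4 (p = 0.143) and −0.51 for Col8a1 to Col8a2 (p = 0.143), each with overlapping groups. For the remaining 3 pairs it was −0.40 by the same exact permutation test (Col14a1 to Col12a1, p = 0.257), 0.09 (Col1a1 to Col4a1, p = 0.314) and 0.03 (Col6a1 to Col1a1, p = 0.886).

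**Figure D5:**
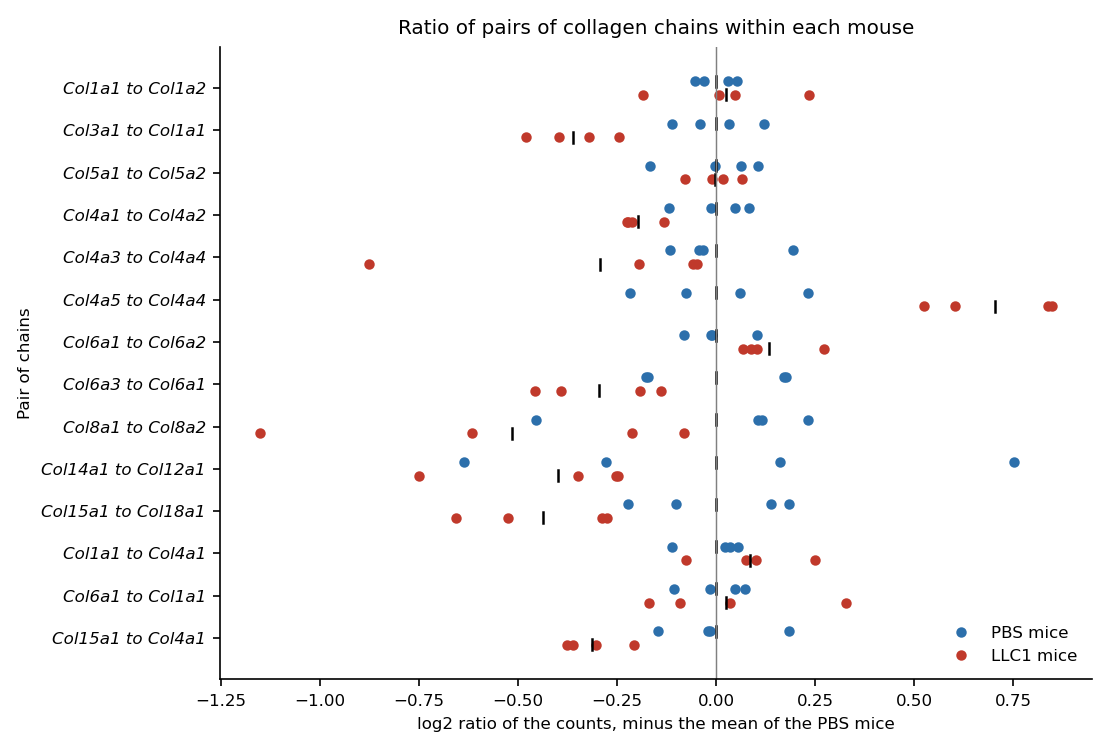
Log2 ratio of the counts of 14 pairs of collagen chains in each mouse, minus the mean of the PBS mice, with the mean of 4 mice as a black bar. The 5 pairs without overlap are Col3a1 to Col1a1, Col4a1 to Col4a2, Col4a5 to Col4a4, Col15a1 to Col18a1 and Col15a1 to Col4a1.

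The genes that modify, cut, bind and degrade collagen were examined as 4 lists in the same fit. Of 17 tested genes for folding and hydroxylation, 2 were lower and 0 higher, with a median log2 fold change of −0.06. Over all genes tested in this fit, 4.61% were called lower and 4.12% higher. Serpinh1, the chaperone HSP47 that binds procollagen in the endoplasmic reticulum, measured 251, 236, 263 and 225 CPM in the LLC1 mice and 356, 424, 283 and 299 in the PBS mice, a log2 fold change of −0.48 (FDR = 0.0234 with edgeR). Plod1, a lysyl hydroxylase, measured 116, 125, 127 and 129 against 139, 156, 144 and 163, a log2 fold change of −0.27 (FDR = 0.0287). Both were below the PBS range in every LLC1 mouse. Serpinh1 lost its call in 4 of 8 fits that left out 1 mouse (without LLC1 1-2, 1-3 or 2-2 or without PBS 1-3, FDR from 0.0558 to 0.0734). Plod1 lost it in 5 (without the same 4 mice or LLC1 1-5, FDR from 0.0514 to 0.0914) and also with length offsets. The list therefore had 0 called genes without any 1 of those 4 mice and 1 without LLC1 1-5. The shares of all genes called lower were 2.58%, 2.18%, 2.95% and 2.02% in those 4 fits, and 2.44% without LLC1 1-5. The prolyl hydroxylase subunits P4ha1, P4ha2 and P4hb did not pass the test, with values of −0.27, −0.07 and −0.01.

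Of 18 genes for processing and cross-linking, 4 were lower and 0 higher, against 4.61% and 4.12% of all genes, with a median of −0.24. Loxl2, a lysyl oxidase that cross-links type IV collagen, measured 11.7, 12, 12.6 and 13 CPM in the LLC1 mice and 21.7, 26.5, 25.1 and 27.0 in the PBS mice, a log2 fold change of −1.02 (FDR = 0.000234 with edgeR). Sparc, which binds collagen outside the cell, measured 279, 297, 289 and 313 against 388, 578, 517 and 682, a log2 fold change of −0.88 (FDR = 0.00343). In both genes the LLC1 mice were tightly grouped below all PBS mice. The small proteoglycans Lum (−0.62, FDR = 0.00105) and Bgn (−0.64, FDR = 0.0123) were also lower, whereas Dcn, of the same family, measured 496, 417, 400 and 431 against 416, 388, 437 and 422 (0.07, FDR = 0.612). Lox itself had a log2 fold change of −0.03 (FDR = 0.926).

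Among collagen receptors 3 of 10 tested genes were lower and 0 higher, against 4.61% and 4.12% of all genes, with a median of −0.33. They were Ddr2, the discoidin domain receptor of fibrillar collagen (−0.50, FDR = 0.00217 with edgeR), the integrin subunit Itga1 (−0.44, FDR = 0.00968) and Mrc2, an uptake receptor for collagen fragments (−0.35, FDR = 0.0161). Ddr2 measured 31.0, 32.1, 29.8 and 33.4 CPM in the LLC1 mice and 45, 40.8, 47.8 and 45.5 in the PBS mice, with PBS 1-1 inside the range of the other controls. Of 9 tested genes for degradation 2 were lower and 0 higher, against the same shares of all genes, with a median of −0.32. These were the gelatinase Mmp2 (−0.61, FDR = 0.00686) and its activator Mmp14 (−0.55, FDR = 0.0196). The study also listed Mmp2 as lower in these samples, so its value is not independent evidence of a direction. Timp4, an inhibitor of such proteases that is abundant in heart, had a log2 fold change of 0.60 (FDR = 0.0847). Mrc2 lost its call in 3 of 8 fits that left out 1 mouse (LLC1 1-3, LLC1 1-5 or PBS 1-3, FDR from 0.0523 to 0.0544), and Mmp14 in 5 (LLC1 1-2, 1-3 or 1-5, PBS 1-3 or PBS 2-1, FDR from 0.0546 to 0.0593), where degradation had 1 called gene. In these fits 2.02% to 3.63% of all genes were called lower. The calls in Ddr2, Itga1, Mmp2 and in the 4 processing genes held in all 8 fits. Without PBS 1-1 the calls in these lists were 2 for folding, 7 for processing, 3 for receptors and 3 for degradation, all lower, and without PBS 1-3 or without LLC1 1-3 they were 0, 4, 2 and 1, all lower. The shares of all genes called lower in these 3 fits were 6.38%, 2.02% and 2.18%. Without PBS 2-5, where 5.1% of all genes were called lower and 4.99% higher, receptors had 4 lower calls, and degradation had 2 lower and 1 higher, Timp4 (0.86, FDR = 0.00597 with edgeR).

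Marker genes of the cells in the ventricle were measured in the same libraries, and their part in the collagen result was not tested. Of 9 fibroblast markers 1 was lower (Vim, −0.59) and 0 higher, 6 had a negative value and the median was −0.21. Over all genes, 4.61% were called lower and 4.12% higher. The summed level of the 9 fibroblast markers was 2029 to 2316 CPM in the LLC1 mice and 1861 to 2237 in the PBS mice. Most of this sum was Gsn, which measured 1436 to 1751 and 1197 to 1449 (0.25, FDR = 0.0746 with edgeR). The other 8 markers summed to 539.5 to 594.5 CPM in the LLC1 mice and 589.2 to 788.7 in the PBS mice, with overlap at the edge. The defining receptor Pdgfra measured 54.5, 54.2, 51.1 and 54.7 against 49.4, 56.2, 67.3 and 52.3 (−0.07, FDR = 0.654 with edgeR). Of 5 tested markers of activated fibroblasts 4 were lower (Postn −1.35, Tnc −1.74, Fn1 −0.69 and Cilp −1.21), and the sixth listed gene, Cthrc1, had too few counts. Their summed level was 134.6 to 182.7 CPM in the LLC1 mice and 232.4 to 310.5 in the PBS mice. All 4 tested markers of dividing cells were lower, with a median of −2.83, and Ccnb1 had too few counts to test. The 5 genes summed to 2.30 to 4.81 against 14.2 to 44.7 CPM.

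Of 9 endothelial markers 2 were lower (Kdr −0.61 and Emcn −0.31), with sums of 1467 to 1579 CPM against 1513 to 2069, and Pecam1 had a value of −0.19 (FDR = 0.168 with edgeR). None of 7 pericyte and smooth muscle markers was called, with sums of 1214 to 1293 against 1314 to 1513, and 1 of 5 macrophage markers was lower (Mrc1), with sums of 125.7 to 152.5 against 125.9 to 196.1. Of 7 cardiomyocyte markers, which define the tissue, 1 was higher (Myh6, 0.24, FDR = 0.0209), with sums of 92519 to 99292 against 83632 to 86414. Myh6 alone measured 53471 to 56460 CPM in the LLC1 mice and 44721 to 47606 in the PBS mice. The other 6 markers summed to 38592 to 42833 and 37430 to 40780, which overlapped, and Actc1 and Ryr2 had negative values of −0.05 and −0.17. Epicardial, atrial and Schwann cell markers had 0 calls among 8 tested genes. Epicardial markers summed from 10.5 to 57.3 CPM in the LLC1 group and from 17.2 to 42.6 in the PBS group, and atrial markers summed to at most 4.41 CPM in any mouse. Without PBS 1-1, more markers were called: 3 of 9 for fibroblasts, 5 of 9 for endothelium, 1 of 7 for pericytes and smooth muscle and 4 of 5 for macrophages, all lower, and 3 of 7 for cardiomyocytes, all higher. Calls over all genes also rose in that fit, from 4.61% to 6.38% lower and from 4.12% to 5.56% higher. The counts for activated fibroblasts and dividing cells, 4 each, were the same. Over all 8 fits that left out 1 mouse, the lower calls ranged from 0 to 3 for fibroblasts, 2 to 4 for activated fibroblasts, 1 to 5 for endothelium, 0 to 1 for pericytes and smooth muscle and 0 to 4 for macrophages, against 2.02% to 6.38% of all genes. The higher calls ranged from 0 to 3 for cardiomyocytes and from 0 to 1 for fibroblasts and for epicardial markers, against 1.3% to 5.56% of all genes. The fibroblast marker called higher was Gsn, without PBS 2-5 (0.30, FDR = 0.0475 with edgeR), and the epicardial one was Krt19, without LLC1 1-2 (0.99, FDR = 0.0473). The lowest counts came without LLC1 1-3 or PBS 1-3 for fibroblasts, without these or LLC1 2-2 for endothelium, without LLC1 1-2, 1-3, PBS 1-3 or PBS 2-1 for activated fibroblasts, and without LLC1 1-2, 1-5, 2-2 or PBS 2-1 for macrophages. Myh6 lost its call without LLC1 1-3, LLC1 1-5, PBS 1-3 or PBS 2-1 (FDR from 0.0641 to 0.0924), and the 4 dividing cell markers, Postn, Tnc and Kdr were called in every one of these fits.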

How the data were processed

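Total RNA from the ventricles was made into libraries with a kit that does not mark strand and sequenced by the study. The authors deposited whole-number counts of reads per gene for 8 mice, with gene coordinates on mm10 and an exon length. The submitters' processing notes name CASAVA, STAR and featureCounts, with no version, and the annotation release was not given in the sources used here. The IDs of all 44 collagen genes are in GENCODE M21, and 41 have the same coordinates there (not Col1a2, Col20a1 and Col25a1). Groups were taken from the labels. Replicates are separate mice.

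Counts were filtered by expression, scaled by the trimmed mean of M-values and compared between LLC1 and PBS mice with the quasi-likelihood F-test of edgeR 4.0.16 (R 4.3.3), with Benjamini-Hochberg adjustment over all 16111 genes tested and a threshold of 0.05. Single genes and ratios of chains also had an exact two-sided permutation test over 70 arrangements, whose smallest p is 0.0286; 0.5 was added to both counts of a ratio. DESeq2 1.42.0, limma 3.58.1 voom and other settings were alternatives. Scripts were tested on simulated data. With 12480706 or more counts per library, every called member had at least 39 counts in each mouse. BLAST 2.17.0 found 0 stretches of 100 bases at 97% identity between a collagen transcript and a gene elsewhere.

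Values in every mouse were given for members with an FDR under 0.05, the highest member of each main class and the partner chains of a trimer; of each pathway list, up to 4 genes with the lowest FDR under 0.05 were named, and further list genes (P4ha1, P4ha2, P4hb, Dcn, Lox, Timp4) were named after their values were seen. The members, the gene lists and the pairs were chosen with earlier results of these data known. Of the pathway and marker lists, 121 of 121 genes were found, 5 through another symbol.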

Additional observations from a re-analysis of the deposited data

Results flagged for a closer look

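In 70 groups of 4 mice (31 tested members and 4 class sums, each in the LLC1 and in the PBS mice), 3 had 1 mouse that lay far from the other 3, where chance alone gives about 1 group in 20. Col8a1 measured 24.1 CPM in LLC1 2-2 and 16.2 to 16.6 in the other LLC1 mice, and this mouse was still below the lowest PBS mouse. Col11a2 measured 7.60 CPM in LLC1 2-2 and 5.99 to 6.02 in the others. Col22a1 measured 1.71 CPM in PBS 2-1 and 0.631 to 0.772 in the other PBS mice. Neither Col11a2 nor Col22a1 passed the test between the groups with all mice. Over all fits tried, their log2 fold changes ran from 0.032 to 0.34 for Col11a2 and from 0.078 to 0.74 for Col22a1. None of these fits called either gene.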

How the results depend on the processing

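The count of collagen genes called lower was 16 or 17 in the 12 alternatives with all mice, and 11 to 18 with 1 mouse left out, against 17; the lowest, 11, came without PBS 1-3. Collagen genes called higher were 0 in every fit, and the median log2 fold change stayed between −0.67 and −0.47 with 1 mouse left out. Col1a1 was not called with total counts only (FDR = 0.0600), limma-voom (0.0519), robust empirical Bayes (0.101) or length offsets (0.0583). Pathway genes called lower ranged from 7 to 15 with 1 mouse left out, against 11, with 7 without LLC1 1-3 or PBS 1-3. Pathway genes called higher were 1 in place of 0 (Timp4) with all genes of at least 1 count, with the likelihood ratio test and without PBS 2-5, a range of 0 to 1. Chain pairs without overlap were 5 or 6, against 5, and the sums of the 4 main classes kept their direction, with 1 mouse left out. Members that were not called changed sign in some fits. Col27a1 was at 0.0025 with length offsets, and from −0.18 to 0.052 with 1 mouse left out. Col28a1 was at −0.026 with total counts only, at −0.0092 when the leading digit of each mouse's label entered the fit, and from −0.13 to 0.22 with 1 mouse left out. With 1 mouse left out Col4a5 ranged from −0.18 to 0.021 and Col6a6 from −0.27 to 0.10. In all of these fits none of the 4 was called. Over all genes, 743 were lower and 663 higher. With total counts only these were 793 and 225, and with 1 mouse left out 330 to 1041 and 212 to 908. No paired analysis was possible because the groups share only 1 replicate code, carried by different mice.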
